A study of Mus musculus with 2 samples.

Results

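A set of 10 immediate early genes outside the AP-1 family was followed in colonies grown from mammary basal cells: the zinc finger factors Egr1, Egr2 and Egr3, the orphan nuclear receptors Nr4a1, Nr4a2 and Nr4a3, the immediate early response genes Ier2, Ier3 and Ier5, and Srf, a factor that switches many of them on. The genes were selected by name with earlier results of these libraries in view, and all 10 were found among the 49492 genes of the count table. The values of the M2 over ctrl contrast are therefore a description and carry no test. Basal cells were sorted from mammary glands of adult female mice, wild-type (WT) by genotype, and grown in 3D matrix-gel for 11 to 14 days. Markers of both the basal and the luminal lineage were abundant in both libraries, as given with the other markers, so these are colonies grown from basal cells and not basal cells alone. The ctrl library came from cells with no treatment, and the M2 library from cells co-cultured with M2-like macrophages. The macrophages were derived from bone marrow, polarised with Il-4 and Il-13 and kept apart from the basal cells by the membrane of a transwell insert, as the methods of the study describe. The medium of both cultures contained EGF, itself an inducer of these genes. How many animals or wells entered a library is not given in the sources used here. Each group holds 1 library, of 26912610 reads for ctrl and 29413844 reads for M2, so no difference could be compared with the spread between cultures.

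Immediate early genes are transcribed within minutes of a stimulus, without the need for new protein, and their mRNAs are short-lived. Growth factors such as EGF act through the ERK kinases on ternary complex factors, which sit beside Srf on CArG boxes, while cAMP and calcium signals act through CREB on cAMP response elements (CREs). Egr1 to Egr3 bind GC-rich sites and switch on growth and differentiation genes. The Nr4a proteins are nuclear receptors whose activity follows their own amount and not a ligand. Ier2 and Ier5 are small nuclear regulators, and Ier3 is a regulator of survival that also responds to NF-κB. Cells handled, dissociated or stimulated shortly before lysis also express these genes.

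Promoters were examined first, because the genes are known for shared control elements. RefSeq (GRCm38.p6) promoter windows of 300 bases, from 250 before to 50 after a transcript start, were matched for 7 members: Egr2 with 5 windows, and Nr4a1, Nr4a2, Nr4a3, Ier3, Ier5 and Srf with 1 window each. Egr3 and Ier2 had no window in the promoter set. Egr1 was left out of the search, so its absence here does not mean that it lacked a window or an element. Both strands were searched. The windows of Srf, Nr4a1, Nr4a3 and Ier3 and 1 window of Egr2 are printed 5′ to 3′, since they hold the elements on which the members differ. Capitals mark CArG boxes, CRE half-sites (TGACG or CGTCA) and NF-κB sites.
Srf, chr17:46556113-46556412, minus strand: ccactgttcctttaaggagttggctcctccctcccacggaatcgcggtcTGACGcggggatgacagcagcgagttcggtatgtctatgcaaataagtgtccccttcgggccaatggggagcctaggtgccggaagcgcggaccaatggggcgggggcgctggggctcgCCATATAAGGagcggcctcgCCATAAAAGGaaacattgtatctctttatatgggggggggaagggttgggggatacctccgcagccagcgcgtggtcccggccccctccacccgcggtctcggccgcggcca
Egr2, chr10:67537619-67537918, plus strand: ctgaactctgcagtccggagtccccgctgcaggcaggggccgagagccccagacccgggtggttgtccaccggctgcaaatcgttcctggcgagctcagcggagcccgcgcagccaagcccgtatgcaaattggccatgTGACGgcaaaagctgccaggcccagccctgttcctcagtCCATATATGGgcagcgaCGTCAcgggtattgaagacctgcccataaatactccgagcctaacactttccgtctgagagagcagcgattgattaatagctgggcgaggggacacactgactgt
Nr4a1, chr15:101266596-101266895, plus strand: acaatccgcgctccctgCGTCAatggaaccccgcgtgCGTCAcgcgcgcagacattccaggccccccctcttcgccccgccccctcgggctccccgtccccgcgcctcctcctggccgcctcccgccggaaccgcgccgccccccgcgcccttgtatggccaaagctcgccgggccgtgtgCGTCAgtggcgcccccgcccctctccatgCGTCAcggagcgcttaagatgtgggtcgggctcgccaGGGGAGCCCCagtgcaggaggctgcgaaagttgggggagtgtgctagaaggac
Nr4a3, chr4:48045055-48045354, plus strand: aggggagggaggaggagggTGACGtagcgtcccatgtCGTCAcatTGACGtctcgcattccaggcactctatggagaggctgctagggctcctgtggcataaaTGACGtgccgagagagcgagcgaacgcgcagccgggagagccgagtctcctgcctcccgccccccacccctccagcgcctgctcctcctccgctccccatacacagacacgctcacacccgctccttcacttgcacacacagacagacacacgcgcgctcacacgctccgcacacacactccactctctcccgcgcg
Ier3, chr17:35821463-35821762, plus strand: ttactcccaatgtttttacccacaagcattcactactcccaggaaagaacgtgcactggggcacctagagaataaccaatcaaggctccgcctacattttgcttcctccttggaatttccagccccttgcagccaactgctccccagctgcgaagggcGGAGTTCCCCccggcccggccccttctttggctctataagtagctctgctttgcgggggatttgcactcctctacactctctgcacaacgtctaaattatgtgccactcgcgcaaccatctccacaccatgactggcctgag

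A CArG box was found in 2 of the 7 members searched, Srf and Egr2, and in 1.63% of the 32851 promoter windows of the genome. Nothing can be said of Egr1 here, as it was left out. The genome shares count single windows, whereas a member counts if any of its windows matches, which gives Egr2 with its 5 windows more chances. Srf held 2 boxes, at -82 and -62 from the start, and 4 of the 5 Egr2 windows held 1 each. The last 3 Egr2 windows overlap and share 1 box, and the second window holds another. CRE half-sites were found in 5 of the 7 members, Egr2, Nr4a1, Nr4a2, Nr4a3 and Srf, and in 20.8% of all windows. The Nr4a genes carried the most, with 4 half-sites in each of the 3 windows. The full element TGACGTCA was in none of the 7, and in 1.79% of all windows. Matches to the EGR site GCGNGGGCG were present for Nr4a1, Nr4a2 and Srf (5.55% of windows), and matches to the ETS site CCGGAA, which ternary complex factors bind, for Egr2, Nr4a1 and Srf (14.9%). The NF-κB site was matched for Ier3, at -92, and for Nr4a1, at -3 (4.51%). TATAAA was present for Nr4a2 and Srf (13.6%), and no window held TGANTCA, the AP-1 site (7.81%), or AAAGGTCA, the NBRE that Nr4a proteins bind (1.51%). The half-site is also part of the full CRE, and CArG, EGR and ETS matches lay apart from each other in the Srf window. A match describes letters only and was not tested as a binding site.

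**Figure D1:**
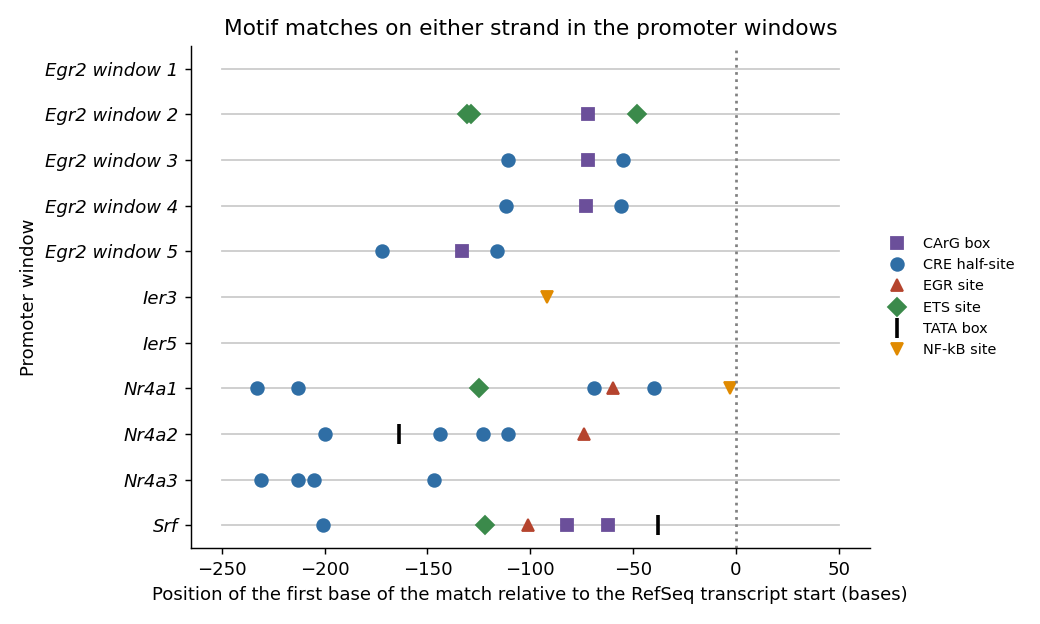
Position of motif matches on either strand (x axis, bases from the RefSeq transcript start) in the 11 promoter windows of 7 genes (y axis). CRE half-sites (blue circles) line the 3 Nr4a windows, CArG boxes (purple squares) lie in Srf and in 4 of the 5 Egr2 windows, and no match was found in Ier5 or in the first Egr2 window.

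To compare the cultures, reads were scaled to the effective library size, and the log2 difference of M2 over ctrl was taken for each gene. At least 2-fold lower in the M2 library were 3 members, Nr4a1, Egr1 and Egr2, and 0 of the 10 were at least 2-fold higher. Of the 19233 genes with at least 10 reads over both libraries, all 10 members included, 7.82% were at least 2-fold lower and 9.53% at least 2-fold higher. At 4-fold, 1 member (Nr4a1) was lower and 0 were higher, against 2.57% and 3.2% of genes. Among genes with at least 1000 reads over both libraries, 3% were at least 2-fold lower and 4.51% at least 2-fold higher. As these values chose the members, nothing is read from the counts. The median of the 10 members was -0.64 on the log2 scale, against -0.0032 over all genes counted, whose middle 50% ran from -0.32 to 0.35. Below that lower quartile lay 7 members, whereas Ier3, Srf and Nr4a3 lay inside the range. Reads of the 10 genes together made up 0.137% of the ctrl library (95% Wilson interval 0.135 to 0.138) and 0.0642% of the M2 library (0.0633 to 0.0651). The 10 genes did not differ by a common amount. In bulk RNA, fewer cells with a transcript and less of it per cell cannot be told apart.

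**Figure D2:**
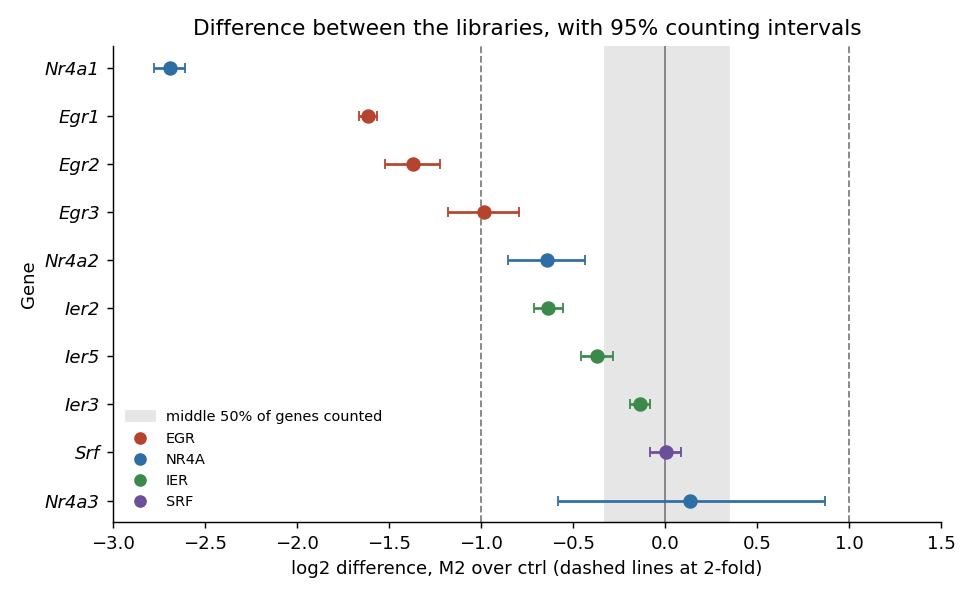
log2 difference, M2 over ctrl, of each gene (x axis) with its 95% counting interval, for 1 library per group. The grey band holds the middle 50% of the 19233 genes counted. The values run from -2.69 for Nr4a1 to 0.13 for Nr4a3, and Nr4a1, Egr1 and Egr2 lie past the 2-fold line.

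All 3 Egr genes were lower in the M2 library. Egr1 (chromosome 18, 34859823 to 34864984, plus strand), the most abundant of the family, had 12610 reads in ctrl against 4322 in M2. Its level, in reads scaled to library size and to kilobases of exon (RPKM), was 102 RPKM in ctrl and 33.4 RPKM in M2, a log2 difference of -1.61 (95% Clopper-Pearson interval -1.66 to -1.56) or 3.06-fold. At the ctrl level, the M2 library would have held 13230 reads of this gene. Egr2 (chromosome 10, 67535475 to 67542188, plus strand), best known from myelinating glia and from T cells, had 1261 reads in ctrl against 512 in M2, or 13.5 and 5.23 RPKM. The log2 difference was -1.37 (-1.52 to -1.22). Egr3 (chromosome 14, 70077445 to 70080157, plus strand), a close relative of Egr1, had 646 and 342 reads, or 16.6 and 8.38 RPKM. Its difference of -0.98 (-1.18 to -0.80) stopped just short of 2-fold, and with scaling to library size alone it was -1.04 and passed. The 3 counting intervals did not overlap each other. As a family, the summed level was 132 RPKM in ctrl and 47.1 RPKM in M2, 2.82-fold lower. Egr1 made up 77.3% of that sum in ctrl and 71.1% in M2, and Egr3 12.5% and 17.8%.

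The Nr4a family held both the lowest and the highest value of the 10 genes. Nr4a1 (chromosome 15, 101266846 to 101274792, plus strand), also called Nur77, had 7989 reads in ctrl against 1297 in M2. Its level was 118 RPKM in ctrl and 18.2 RPKM in M2, and the log2 difference was -2.69 (95% interval -2.78 to -2.61), that is 6.46-fold lower. Among the 8122 genes with at least 1000 reads over both libraries, 32 had a value as low or lower, Nr4a1 included, or 0.394%. Nr4a2 (chromosome 2, 57106830 to 57124003, minus strand), also called Nurr1 and required for dopamine neurons, had 473 and 318 reads, or 4.24 and 2.72 RPKM, a difference of -0.64 (-0.85 to -0.43). Nr4a3 (chromosome 4, 48045153 to 48086447, plus strand), also called Nor1, was close to the detection limit with 32 reads in ctrl against 37 in M2, or 0.195 and 0.214 RPKM. Its interval ran from -0.58 to 0.87, so a difference within that range was not detectable at this depth. The level of Nr4a1 was 27.7 times that of Nr4a2 in ctrl and 6.69 times in M2. The family sum was 122 RPKM in ctrl and 21.1 RPKM in M2, and Nr4a1 took 96.4% of it in ctrl and 86.1% in M2. Each of the 3 promoter windows of this family holds 4 CRE half-sites. The differences of the genes ranged from -2.69 to 0.13, the latter for Nr4a3 with its few reads. A link between half-sites and differences was not tested.

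**Figure D3:**
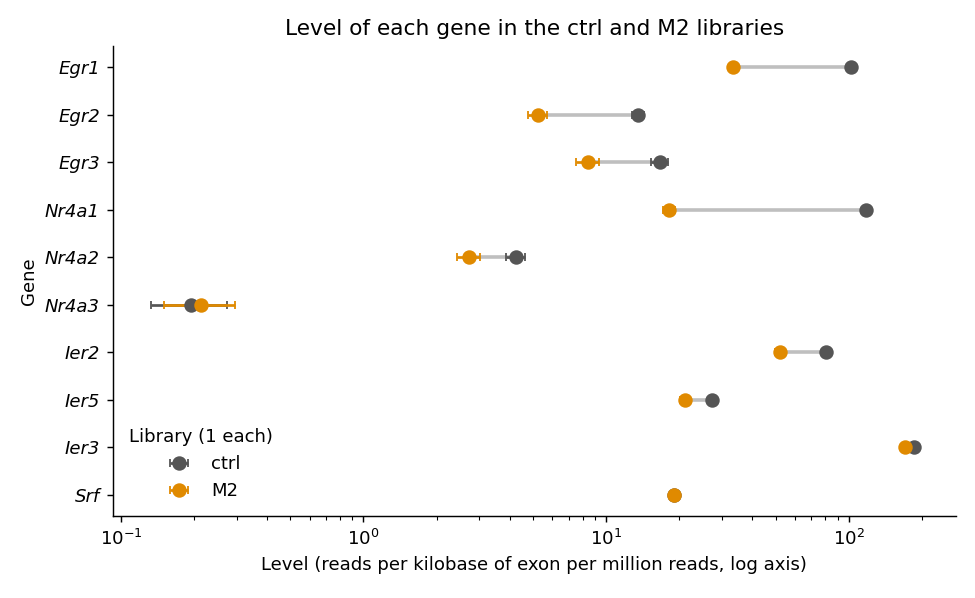
Level of each gene in RPKM (x axis, log scale) in the ctrl (grey) and M2 (orange) libraries, 1 library each, with 95% Poisson counting intervals. The points of Nr4a1 lie far apart, at 118 and 18.2 RPKM, while those of Ier3 (187 and 170 RPKM) and Srf (19.1 RPKM in both) nearly coincide.

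Summed over the family, the Ier genes differed less than the Egr or Nr4a genes, although single members overlapped, with Ier2 and Nr4a2 at nearly the same value. Ier2 (chromosome 8, 84661331 to 84662852, minus strand) had 3364 reads in ctrl against 2275 in M2, or 80.5 and 51.9 RPKM, with a log2 difference of -0.63 (95% interval -0.71 to -0.56), 1.55-fold lower. Ier5 (chromosome 1, 155096361 to 155099636, minus strand), which also takes part in the heat shock response, had 2457 and 1998 reads, or 27.3 and 21.2 RPKM, a difference of -0.37 (-0.45 to -0.28). Ier3 (chromosome 17, 35821684 to 35822923, plus strand) was the most abundant of the 10 genes per length in both libraries. It had 5796 reads in ctrl against 5533 in M2, or 187 and 170 RPKM, and its difference of -0.14 (-0.19 to -0.08) lay within the middle 50% of all genes. The 3 intervals lay apart from each other. The summed level was 294 RPKM in ctrl and 243 RPKM in M2, 1.21-fold lower, and Ier3 made up 63.4% and 69.9% of it.

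Srf (chromosome 17, 46546839 to 46556162, minus strand) did not differ beyond counting error. It had 2142 reads in ctrl against 2253 in M2, or 19.1 RPKM in both libraries. The log2 difference was 0.0036, with an interval from -0.08 to 0.09. With scaling to library size alone the sign was negative, at -0.06, which lies within that interval. The level of Egr1 was 5.37 times that of Srf in ctrl and 1.75 times in M2.

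The order of the genes by level per length differed between the libraries. In ctrl, Ier3 was followed by Nr4a1, Egr1, Ier2, Ier5, Srf, Egr3, Egr2, Nr4a2 and Nr4a3, and no neighbouring pair had overlapping counting intervals. In M2 the order was Ier3, Ier2, Egr1, Ier5, Srf, Nr4a1, Egr3, Egr2, Nr4a2 and Nr4a3. Srf (18.3 to 19.9 RPKM) and Nr4a1 (17.2 to 19.2 RPKM) could not be told apart there by counting error. In ctrl, 4 members (Ier3, Nr4a1, Egr1 and Ier2) were among the top 10% of the genes counted, and in M2 3 of them were, without Nr4a1. Ranked by RPKM among the genes counted, Nr4a1 stood at 400 in ctrl and 3261 in M2, Egr1 at 481 and 1752, and Ier3 at 223 and 301. Levels use the exon length of the table. The coordinates of Egr3, Nr4a1 and Srf differ there from GENCODE release M21 and those of the other 7 members do not, so the levels of these 3 genes are less certain. No exon of another listed gene shared bases with an exon of a member.

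**Figure D4:**
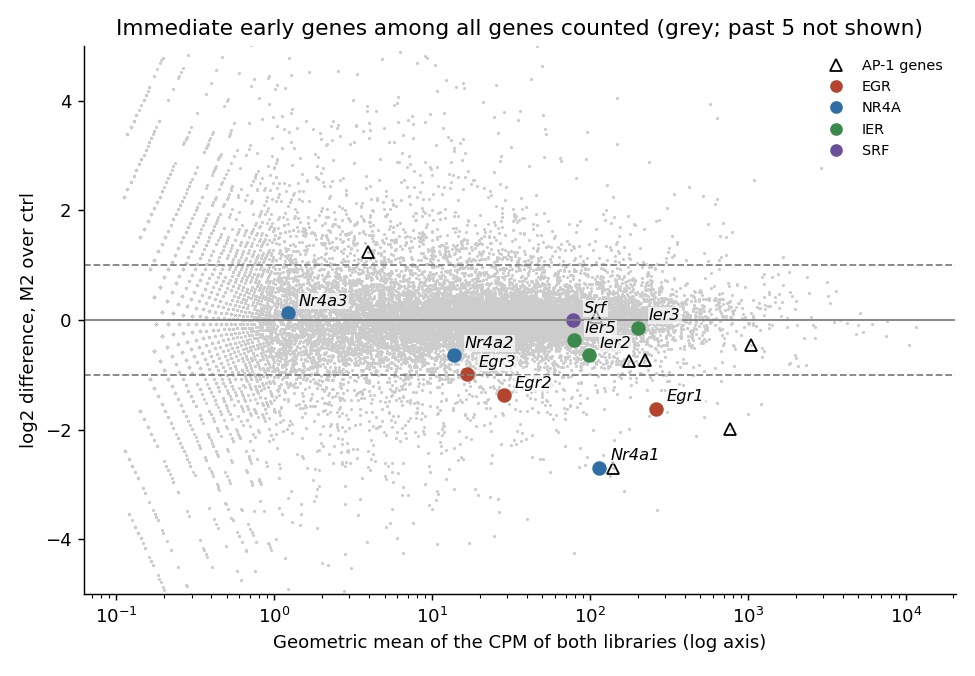
log2 difference, M2 over ctrl (y axis), against the geometric mean level in CPM (x axis, log scale) for all genes counted (grey), the 10 immediate early genes (coloured by family) and the 7 AP-1 genes (open triangles). Nr4a1 and Egr1 sit at high levels below the bulk of the genes, with values of -2.69 and -1.61.

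The gene structure of the members, which does not depend on the reads, varied. Of the 10, 5 (Egr1, Egr3, Ier2, Ier3 and Ier5) had at most 2 exon blocks in the table, where overlapping exons are merged. Of all genes counted 23.8% had so few, and of the 13724 genes counted that RefSeq lists as protein-coding, 6.54%. Ier2 and Ier5 had 1 block each. The median of the members was 3.5 blocks, against 7 for genes counted and 10 for protein-coding genes counted. Nr4a1 and Srf had 7 blocks, Nr4a3 had 9 and Nr4a2 had 10. In exonic length the median of the members, 3337 bases, was near that of genes counted, 3243 bases. Under 5 kb of the genome was spanned by 4 members, from 1240 bases for Ier3 to 3276 bases for Ier5, as did 26.7% of genes counted and 11.2% of the protein-coding ones. Egr3, 1 of the 4, is longer than 5 kb in GENCODE release M21. Nr4a3 was the longest with 41295 bases. The lowest and the highest difference belonged to Nr4a1 and Nr4a3, with 7 and 9 blocks, and a link between structure and difference was not tested.

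Regulators that act with the members were compared from lists of related genes, which were also chosen with earlier results known. Of 150 related genes with enough reads, 16 were at least 2-fold higher and 12 at least 2-fold lower, with a median of 0.0025. Over all genes counted the shares were 9.53% higher and 7.82% lower, and nothing is read from the counts of these lists. The EGR corepressors Nab1 (3203 and 4855 reads) and Nab2 (2498 and 1909 reads) differed by 0.53 and -0.46 on the log2 scale, and Egr4 had 0 reads in both libraries, which allows up to 3 reads, or 0.109 CPM in ctrl and 0.104 CPM in M2. Among 7 Srf cofactors, 6 had enough reads, 2 were at least 2-fold higher and none lower. Fhl2, an actin-linked coregulator, had 964 reads in ctrl against 2920 in M2, a difference of 1.53 (95% interval 1.42 to 1.64). Elk3, a ternary complex factor that often represses, had 910 and 2399 reads, a difference of 1.33 (1.22 to 1.44). The other ternary complex factors Elk1 and Elk4 had values of -0.0073 and -0.41, and the actin-sensing coactivators Mrtfa and Mrtfb, listed under the older symbols Mkl1 and Mkl2, had -0.30 and -0.13. Of 20 cytoskeletal Srf targets, 2 were at least 2-fold higher and none lower, with a median of 0.25. These were the smooth muscle actin Actg2, with 533 and 2042 reads (1.87), and the tropomyosin Tpm2, with 13197 and 31402 reads (1.18). In the list from the EGF receptor to ERK, 0 of 19 genes passed 2-fold in either direction, with values from -0.45 to 0.46. These are RNA levels and do not measure kinase activity. From western blots of organoids, the study reports that M2 co-culture could activate the AKT and ERK cascades. Among 10 ERK feedback genes, Dusp4 (1.28) and Spred3 (1.04) were at least 2-fold higher and Spry1 (-1.16) and Spry2 (-1.04) at least 2-fold lower. Nab1, Nab2, Elk1, Elk4, Mrtfa and Mrtfb were named after their values were seen.

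Other primary response genes went both ways. Of 57 genes of this list, 56 had enough reads, and the median was -0.0086. At least 2-fold higher were 9 genes and at least 2-fold lower 8, beside 9.53% and 7.82% of all genes counted. The lowest were Klf2, a shear- and MEK5-responsive factor, with 341 reads in ctrl against 58 in M2 (-2.60), the EGF-like ligand Areg with 1137 and 315 reads (-1.92), and the stress factor Atf3 with 2966 and 895 reads (-1.80). Zfp36, which binds AU-rich elements and speeds the decay of short-lived mRNAs, had 16616 and 6272 reads (-1.47), and Dusp1, a phosphatase of p38 and JNK, had 9423 and 4804 reads (-1.04). The highest were Pmaip1, which encodes the BH3-only protein Noxa, with 221 and 2465 reads (3.40), the urokinase receptor gene Plaur with 109 and 726 reads (2.66), and the NF-κB feedback gene Tnfaip3 with 312 and 1836 reads (2.48). The NF-κB regulator Nfkbiz, with 2175 and 5809 reads (1.35), was also past 2-fold. Dusp1 and Nfkbiz were named after their values were seen. Among the AP-1 genes, Fosb had 9822 reads in ctrl against 1585 in M2 (-2.70) and Fos had 42339 and 11153 (-1.99), while Fosl1 had 70 and 175 reads (1.24). Of the 7 AP-1 genes, 2 were at least 2-fold lower and 1 at least 2-fold higher.

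**Figure D5:**
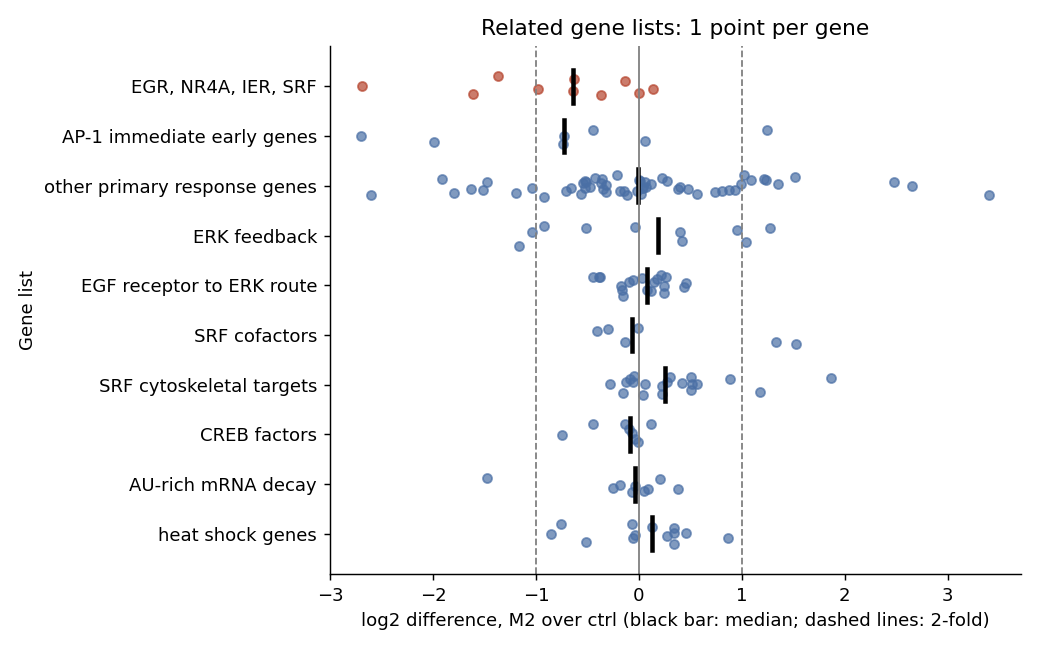
log2 difference, M2 over ctrl (x axis), of each gene with at least 10 reads in 10 lists (y axis), 1 point per gene and 1 library per group. The black bar is the median of a list, -0.64 for the 10 immediate early genes, -0.73 for the AP-1 genes and -0.0086 for the other primary response genes, which spread from -2.60 to 3.40.

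Marker genes were read in the same libraries. The labels describe the cells as sorted, before they grew into colonies. The study's text also gives flow cytometry of grown colonies. It reports mostly luminal cells in both groups, with a larger basal share and a smaller Sca1-high luminal share after M2 co-culture. Whether those colonies were the ones sequenced is not stated there. All 10 basal markers had reads in both libraries, among them Krt5 (56383 and 83619 reads), Krt14 (81991 and 68968 reads) and Trp63 (5445 and 6331 reads). All 10 luminal markers did as well, among them Krt8 (29888 and 36348 reads) and Krt18 (14001 and 14225 reads), so the share of basal cells in either library is not known from these reads. Of 10 luminal markers, 5 were at least 2-fold lower and none higher in M2, led by the hormone receptor genes Pgr (3195 and 575 reads, -2.54) and Esr1 (1028 and 281 reads, -1.94), and the list summed to 3995 CPM in ctrl and 3250 CPM in M2. Of 10 basal markers, only Oxtr was at least 2-fold lower (8324 and 1920 reads, -2.18), and the sum was 8195 and 8870 CPM. Fibroblast markers were mostly lower, with 4 of 7 at least 2-fold lower and 1 higher, and a sum of 330 CPM in ctrl and 134 CPM in M2. The 5 endothelial markers summed to 2.18 and 2.81 CPM, and of the 3 with enough reads 1 was at least 2-fold higher and 2 lower. The part of these cell types in the values of the members was not tested. Macrophage markers were scarce: the 14 genes summed to 10.1 and 11.7 CPM, and Tyrobp, Fcer1g, Adgre1, C1qb, C1qc and Ptprc had 0 reads in both libraries. Cd68 (170 reads in ctrl and 165 in M2) and Csf1r (94 and 92 reads) had the most reads of the list and nearly equal values. At low counts, Aif1 was higher in M2 (3 reads against 40), and so was Cd163 (2 reads against 30). Mrc1 (1 and 5 reads) and C1qa (0 and 2 reads) were also higher, whereas Lyz2 (3 and 1 reads) and Ctss (5 and 2 reads) were lower. Of 13 heat shock genes, none was 2-fold apart in either direction. The stress-inducible Hspa1a (3282 and 2038 reads) and Hspa1b (13717 and 7954 reads), close paralogs that may share reads, had values of -0.76 and -0.86, and Hsp90aa1, with 11854 and 22628 reads, had 0.86. The part of the stress genes in the values of the members was not tested. Krt5, Krt14, Trp63, Krt8, Krt18, Hspa1a, Hspa1b and Hsp90aa1 were named after their values were seen. So were the macrophage markers with reads in either library.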

How the data were processed

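Gene-level reads were compared between 1 ctrl and 1 M2 library, grouped by sample title. The authors deposited read counts for each gene that were not normalized, beside its exonic length. Per the labels the build was GRCm38 (mm10). The aligner, the counting tool and its version, the annotation, strand use and read filters are not given in the sources used here, so reads on opposite strands could be mixed. The word microarray in the series text goes against the values, which are whole read counts.

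Genes with at least 10 reads over both libraries were counted. Libraries were scaled with TMM in edgeR 4.0.16 (R 4.3.3), which gave 1.02 (ctrl) and 0.980 (M2) as factors. The log2 difference was that of reads plus a pseudocount of 1 over the effective library size, with a 95% Clopper-Pearson interval of the share of reads. Levels were scaled to library size (CPM) and also to kilobases of exon (RPKM), with exact Poisson intervals. Intervals, and the floor of 3 reads for a count of 0, cover counting error only, since reads without molecular identifiers are not independent molecules. No test was run, because each group holds 1 library and the members and gene lists were chosen with earlier results of these data known. All 10 members were named, and of each list up to 3 genes in each direction past 2-fold with at least 50 reads in a library. Any other gene named was picked after a look at its values. Scripts were tested on simulated data first. Motifs were searched in RefSeq promoters with Python 3.11.15, and protein sequences were not used here. Alternatives were other scalings (DESeq2 1.42.0 size factors, upper quartile, library size), pseudocounts, filters, fold thresholds and windows.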

Additional observations from a re-analysis of the deposited data

How the results depend on the processing

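The 8 members whose interval lay below 0 kept their sign under 5 alternatives (3 scalings and 2 pseudocounts), and the median of the 10 members ran from -0.70 to -0.63. Egr3 passed 2-fold only with scaling to library size alone, at -1.04. A filter on low reads cannot alter the value of a gene. At a 1.5-fold threshold 6 members were lower and 0 higher, and of the related genes 22 were lower and 24 higher. At 2-fold these numbers were 3, 0, 12 and 16, and at 4-fold 1, 0, 2 and 3. These counts follow from the threshold itself. Of the 19233 genes counted, 1504 (7.82%) were lower and 1832 (9.53%) higher at 2-fold, 2842 and 3179 at 1.5-fold and 494 and 616 at 4-fold. With no filter, 4001 of 49492 (8.08%) were lower and 3174 (6.41%) higher, so that lower genes outnumbered higher ones. With at least 1 CPM in both libraries, 583 of 14590 (3.996%) were lower and 797 (5.46%) higher, and with at least 100 reads, 657 of 14148 (4.64%) and 913 (6.45%). With only the bases before the transcript start, 1 of the 7 promoters held an NF-κB site instead of 2. Over all genes of the table, 51.9% had at most 2 exon blocks, against 23.8% of genes counted. Among the members, Nr4a3 had the fewest reads and the widest interval. No paired analysis was possible because ctrl and M2 have 1 library apiece.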

Other observations

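Further regulators of these genes were read from 3 lists. All 8 genes of the CREB list, which covers the factors and coactivators that act on CREs, lay within 2-fold, with a median of -0.08 and values from -0.75 for Crtc1 (832 reads in ctrl and 518 in M2) to 0.12 for Creb1 (2095 and 2390). Of the retinoid X receptors, which pair with Nr4a1 and Nr4a2, Rxra had 2859 reads in ctrl against 1987 in M2 (-0.59), Rxrb had 736 and 836 (0.11) and Rxrg had 0 in both. These genes were named after their values were seen. Of 9 genes that bind or shorten AU-rich mRNAs, Zfp36 was the 1 past 2-fold, at -1.47, and the median of the list was -0.04.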
